A study of Homo sapiens with 6 samples.

Results

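Genes of myelin and of Schwann cells were examined in 1205Lu cells, an established human line from a metastatic melanoma, after transfection with a plasmid for SOX10. The 8 genes are PMP22, CNP, MBP, S100B, GPM6B, NDRG1, L1CAM and EGR2, found by symbol as 8 of the 23368 genes in the deposited count table. They were chosen as a named list, without PMP2, the myelin gene that the series is about. The experiment has 3 flasks that received pCMV6-SOX10 and 3 that received the empty vector pCMV6, described as biological replicates. Each flask was given 7.8 µg of plasmid and lysed 24 h later, and 125 ng of total RNA went into each library. The transfection is transient, and these cells already make SOX10. The SOX10 reads did not establish that the plasmid raised it, at a fold of 1.27 with a 95% confidence interval from 0.87 to 1.87. No source used here gives the share of cells that took up the plasmid. Few cells with a large change and many cells with a small one cannot be told apart, nor can fewer cells of a type and less RNA per cell.

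Schwann cells wrap axons of peripheral nerves in myelin, a stack of cell membrane held together by a small set of abundant proteins. The transcription factor SOX10 is needed for the lineage and acts there with EGR2 to switch on the myelin genes. Melanocytes come from the same neural crest source, and melanomas often keep SOX10 and S100B.

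Reads assigned to genes numbered 2544420 to 4167393 in the SOX10 libraries and 867917 to 2066520 in the controls, so every SOX10 library was deeper than every control. SOX10 replicate 1 and control replicate 3 stood apart, with 93.5 and 97.0 reads outside genes per 100 assigned reads, against 121 to 135 in the other 4 libraries. SOX10 itself was at 25.02 ± 8.45 CPM in the libraries labelled SOX10 and at 19.6 ± 2.63 CPM in the controls (SD, n = 3 each). CPM are reads per 1000000 reads in the genes with enough reads for the test, scaled between libraries by the TMM method. For SOX10 edgeR gave an adjusted p of 0.927, so SOX10 reads do not check the labels. PMP2 was called higher, by 3.99 on the log2 scale (SE 0.49, edgeR adjusted p 0.000103). Without control replicate 3 this was 5.12, and without any other single library 3.61 to 4.10, called in each. Among 8 Schwann cell markers S100B had 4339 reads over all 6 libraries, while PRX, MAG, GJB1 and CDH19 had 3 to 20. This list also holds SOX10 and markers that are not reported here, so these counts do not describe the list as a whole. Among 8 melanocytic markers MLANA, PMEL, TYR, DCT and TYRP1 had 4 to 19 reads, close to none, MITF had 75, and SOX10 and S100B stand in both lists. The summed level of all 8 Schwann cell markers, those not reported here included, was 411 to 489.8 CPM in the SOX10 libraries and 377 to 463 CPM in the controls.

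No gene of the 8 was called higher or lower with SOX10. A gene was called at an adjusted p under 0.05 in edgeR's quasi-likelihood test, with adjustment over all 10678 genes that had enough reads. Of the 8 genes 5 were tested and 0 were called, and 0 had an unadjusted p under 0.05 either. DESeq2 and limma-voom also called 0 of these 5. Over all tested genes 0.112% were called, 0.00937% higher and 0.103% lower, and 6.23% had an unadjusted p under 0.05, a background at which 0 of 5 is not a result particular to these genes. The 5 log2 fold changes ran from -0.22 to 0.11 with a median of -0.024, beside a median of 0.0076 over all tested genes. MBP, GPM6B and EGR2 had too few reads for the test.

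**Figure D1:**
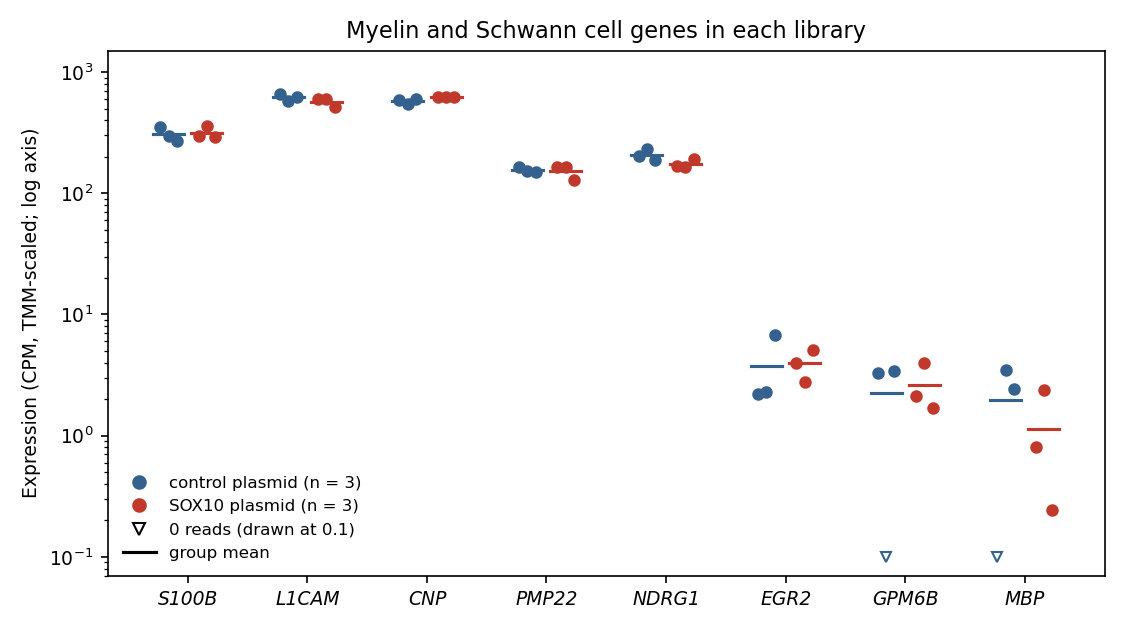
Expression of the 8 genes in each of the 6 libraries, in TMM-scaled CPM on a log axis, with a point per library, a bar for each group's mean and open triangles at 0.1 for libraries with 0 reads. S100B, L1CAM, CNP, PMP22 and NDRG1 lie above 100 CPM in every library, while EGR2, GPM6B and MBP lie below 10, and the groups overlap for each gene except CNP.

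The structural myelin proteins were split between genes with many reads and genes with hardly any. PMP22 encodes a tetraspan protein of compact peripheral myelin, whose duplication or deletion causes hereditary neuropathies. It stood at 166, 163.5 and 129.8 CPM in the SOX10 libraries and at 164.7, 153 and 149.7 CPM in the controls. The lowest value of all 6 was SOX10 replicate 3, and the other 5 libraries lay together. The log2 fold change was -0.024 (SE 0.12), a fold of 0.98 with a 95% confidence interval from 0.82 to 1.18 (edgeR adjusted p 0.993). In GENCODE release 29, 6.22% of its exonic bases are shared with AC005703.6 on the opposite strand.

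CNP encodes an enzyme that acts on cyclic nucleotides and keeps the cytoplasmic channels of myelin open. It was the steadiest of the 8 genes, at 620.5, 627 and 628 CPM in the SOX10 libraries and 594, 550.2 and 595 CPM in the controls. All 3 SOX10 libraries lay above all 3 controls, a pattern that held for 5.72% of all tested genes, or 11.8% in either direction. The difference was small, with a log2 fold change of 0.11 (SE 0.092), a fold of 1.08 with a 95% confidence interval from 0.94 to 1.23, and an edgeR adjusted p of 0.929. The SD over the mean was 0.67% in the SOX10 libraries and 4.40% in the controls, beside medians of 14.01% and 17.8% over all tested genes. CNP shares 7.69% of its exonic bases with DNAJC7 on the opposite strand in GENCODE release 29, and no source used here says whether reads were counted by strand.

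MBP encodes myelin basic protein, which glues the cytoplasmic faces of the membrane together. It had 3, 6 and 1 reads with the SOX10 plasmid and 0, 3 and 5 with the empty one. In CPM these are 0.80, 2.39 and 0.24 against 0, 3.46 and 2.44, and the groups overlap. A library with 0 reads allows up to 3 reads, which in control replicate 1 is 3.32 CPM. The ratio of summed reads, 10 against 8 and scaled to library totals, was 0.46 with a 95% interval from 0.16 to 1.34 that covers counting error only. Without SOX10 replicate 2, the SOX10 library with the most MBP reads, it was 0.24 with an interval from 0.054 to 0.91, which lies below 1. With each of the other libraries left out in turn the ratio lay between 0.35 and 0.69, and each of those intervals includes 1, as does the one over all libraries.

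GPM6B encodes a membrane glycoprotein. It had 8, 10 and 7 reads with the SOX10 plasmid and 3, 0 and 7 with the empty one. The levels were 2.14, 3.99 and 1.70 CPM against 3.32, 0 and 3.41 CPM, with SOX10 libraries lying within the range of the controls except for replicate 2. The mean CPM was 2.61 with the SOX10 plasmid and 2.24 with the empty one, but the ratio of summed reads lay below 1. This ratio was 0.92 (95% interval 0.43 to 2.15, counting error only), and 1.42 (0.43 to 7.37) without control replicate 3.

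L1CAM encodes a cell adhesion molecule by which Schwann cells and axons hold each other, and which is also found on invasive tumor cells. It stood at 597, 599 and 519.6 CPM in the SOX10 libraries and 659, 576 and 619.7 CPM in the controls. SOX10 replicate 3 was lowest and control replicate 1 highest, and the groups overlap. The log2 fold change was -0.11 (SE 0.098), a fold of 0.92 with a 95% confidence interval from 0.80 to 1.06 (edgeR adjusted p 0.929). A locus on the same strand, U52112.1, shares 7.80% of its exonic bases in GENCODE release 29.

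S100B encodes a calcium-binding protein that serves as a standard marker of Schwann cells and of melanoma. It stood at 297, 360.2 and 289.7 CPM in the SOX10 libraries and 354, 295 and 271 CPM in the controls, and the groups overlap. The log2 fold change was 0.047 (SE 0.12), a fold of 1.03 with a 95% confidence interval from 0.87 to 1.22 (edgeR adjusted p 0.974). The sign turned without SOX10 replicate 2, where the log2 fold change was -0.057, and without control replicate 3, where it was -0.042.

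NDRG1 encodes a cytoplasmic protein of myelinating Schwann cells that is mutated in a hereditary demyelinating neuropathy and that responds to low oxygen in many cells. Its levels were 169.5, 165.5 and 193 CPM in the SOX10 libraries and 201, 231 and 189.7 CPM in the controls. The groups overlap by 1 pair of libraries, since SOX10 replicate 3 lay above control replicate 3. NDRG1 had the smallest p of the 8 genes, an unadjusted 0.068 by edgeR, and 8.08% of all tested genes had a smaller one. The log2 fold change was -0.22 (SE 0.12), a fold of 0.86 with a 95% confidence interval from 0.72 to 1.01 (edgeR adjusted p 0.839). Without single libraries it ran from -0.30 to -0.14.

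EGR2, also known as Krox20, encodes the zinc finger factor that drives Schwann cells into myelination. It had 15, 7 and 21 reads with the SOX10 plasmid and 2, 2 and 14 with the empty one. In CPM it stood at 4.02, 2.79 and 5.09 against 2.21, 2.31 and 6.83, so the lowest and the highest library were both controls. The mean CPM was 3.97 with the SOX10 plasmid and 3.78 with the empty one. By contrast the ratio of summed reads was 0.88 (95% interval 0.50 to 1.62, counting error only), so the direction depends on the measure. Control replicate 3, which holds 14 of the 18 control reads, decided that value, and without it the ratio was 1.84 with an interval from 0.67 to 7.04. Control replicate 3 also had few reads outside genes, and the part of that difference in the EGR2 value was not tested.

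**Figure D2:**
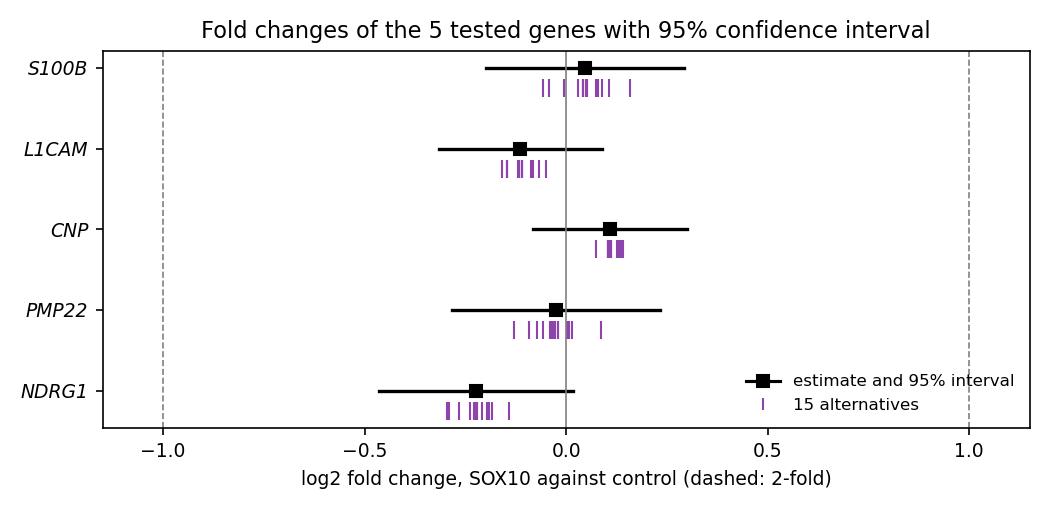
Log2 fold change of the 5 tested genes, SOX10 against control, as a square with its 95% confidence interval and with a tick for each of 15 alternative analyses; dashed lines mark a 2-fold change. Every interval includes 0 and lies between the dashed lines, and the ticks of PMP22 and S100B fall on both sides of 0.

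Over the 5 tested genes the 95% confidence interval of the fold reached farthest upward for CNP, at 1.23-fold, and farthest downward for NDRG1, at 0.72-fold. For the 3 rare genes the intervals were far wider and included 1.

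Compared per length, the 8 genes formed an order that was nearly the same in both groups. The levels are CPM per kilobase, with the length taken from the longest coding transcript in GENCODE release 29. S100B was highest at 325 ± 40.0 in the SOX10 libraries and 316 ± 43.8 in the controls (SD, n = 3 each), above 98.8% of tested genes with a length. L1CAM followed at 111 ± 8.77 and 120.2 ± 8.12, with CNP at 119.9 ± 0.81 and 111 ± 4.88. These neighbours overlap over the 6 libraries, with CNP ahead in the SOX10 libraries and L1CAM in the controls by group mean. PMP22 came next at 82.3 ± 10.9 and 83.8 ± 4.21, and NDRG1 stood at 46.9 ± 3.92 and 55.2 ± 5.63, each apart from its neighbours in every library. EGR2 stood at 1.34 ± 0.39 and 1.27 ± 0.89, GPM6B at 0.66 ± 0.31 and 0.57 ± 0.49 and MBP at 0.24 ± 0.23 and 0.41 ± 0.37. GPM6B overlaps with both EGR2 and MBP and cannot be ordered against them at this depth. The lowest EGR2 library, control replicate 1 at 0.745, lay just above the highest MBP library, control replicate 2 at 0.714, both on few reads. Between NDRG1 and EGR2 lay a gap of 35.1-fold in the SOX10 libraries and 43.3-fold in the controls. A calcium-binding marker, an adhesion molecule and proteins of both compact and non-compact myelin were thus among the abundant genes. The rare ones were the myelin regulator EGR2, the membrane glycoprotein gene GPM6B and MBP, a structural myelin gene.

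To show which upstream sequence belongs to abundant and to rare genes, the 250 bases before annotated starts were taken from RefSeq (GRCh38.p14), which covered 6 of the 8 genes with 14 start sites. S100B and NDRG1 had no entry. The letters ACAAAG or ACAATG, a core that SOX proteins bind, were searched on both strands, where they read CTTTGT or CATTGT on the other strand. They occurred in 5 of the 14 windows, in 1 window each of PMP22, CNP, MBP, GPM6B and EGR2, and in 0 of the windows of L1CAM. Of all 35114 windows of this length in the table, 21.2% hold them. The letters GCGTGGGCG or GCGGGGGCG, which EGR proteins bind, were in 0 of the 14 windows and in 5.4% of all windows. A match in so short a motif is a description of letters and not a binding site. Windows of 2 abundant and 2 rare genes without a base in an annotated exon are shown, 5′ to 3′ towards the start, with the SOX letters in capitals. They lie at chr17:41967547-41967796 on the plus strand for CNP, chrX:153875945-153876194 on the minus strand for L1CAM, chr10:62819168-62819417 on the minus strand for EGR2 and chrX:13938639-13938888 on the minus strand for GPM6B.
CNP: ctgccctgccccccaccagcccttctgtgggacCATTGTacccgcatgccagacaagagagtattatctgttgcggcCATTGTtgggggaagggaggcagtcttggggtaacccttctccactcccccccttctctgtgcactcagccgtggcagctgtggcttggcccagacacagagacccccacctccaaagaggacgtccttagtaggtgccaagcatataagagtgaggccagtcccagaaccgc
L1CAM: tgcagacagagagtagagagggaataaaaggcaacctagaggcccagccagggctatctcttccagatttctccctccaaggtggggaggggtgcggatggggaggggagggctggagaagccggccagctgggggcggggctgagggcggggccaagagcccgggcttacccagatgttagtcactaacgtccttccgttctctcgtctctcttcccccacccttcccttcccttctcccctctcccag
EGR2: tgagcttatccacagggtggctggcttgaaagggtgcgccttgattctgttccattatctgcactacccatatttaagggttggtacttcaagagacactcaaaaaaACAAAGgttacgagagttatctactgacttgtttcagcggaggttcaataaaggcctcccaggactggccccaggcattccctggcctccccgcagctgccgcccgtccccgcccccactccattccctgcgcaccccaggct
GPM6B: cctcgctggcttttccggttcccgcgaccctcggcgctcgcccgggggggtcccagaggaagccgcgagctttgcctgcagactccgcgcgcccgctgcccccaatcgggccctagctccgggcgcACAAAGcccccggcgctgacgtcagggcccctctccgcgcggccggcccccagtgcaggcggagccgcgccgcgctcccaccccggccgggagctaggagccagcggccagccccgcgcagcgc
The abundant gene CNP carries the letters at 2 places, 217 and 173 bases before the start counted at their first base, and the abundant gene L1CAM carries them nowhere in its window. The rare genes EGR2 and GPM6B carry them at 1 place each, 143 and 124 bases before the start. EGR2 has 2 further windows without a base in an annotated exon, starting at positions 62818776 and 62816367 on chromosome 10, and neither holds the letters, so their presence for EGR2 depends on the start site shown. The same dependence on the start site holds for CNP and GPM6B, whose other windows start at positions 41966545 and 13817094. Those windows overlap annotated exons and lack the letters. The other window of L1CAM has no base in an annotated exon and lacks them too. It starts at position 153876015, so it shares most of its bases with the window shown. Read counts are of the gene as a whole, not of 1 start site.

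Levels of the 8 genes were set beside those of their relatives, per length. PMP22 stood above its relatives EMP1, at 58.2 against 61.7 CPM per kilobase (SOX10 against control means), EMP3 at 56.6 against 50.4 and above EMP2, which was lowest of the 4. Their log2 fold changes were -0.093 (SE 0.12), 0.099 (SE 0.22) and -0.078 (SE 0.16), and edgeR called none of them. The level per kilobase of the rare GPM6B stood below that of its relative GPM6A by 5.17-fold in the SOX10 libraries and 3.25-fold in the controls. GPM6A was at 9.72 ± 3.79 CPM in the SOX10 libraries and 5.26 ± 2.56 CPM in the controls (SD over 3 libraries each), a log2 difference of 0.78 (SE 0.46). NDRG1 was the leading gene of its family, with NDRG3 at 5.80 against 4.04 CPM per kilobase and NDRG2 and NDRG4 at 1.31 to 1.71. On the log2 scale NDRG3 differed by 0.46 (SE 0.30) and NDRG4 by -0.37 (SE 0.47), while NDRG2 had too few reads for the test.

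In the EGR family of immediate early and differentiation factors the order was turned round, since EGR2 was one of the rarest. EGR1, an early response gene, stood 115-fold above EGR2 per length in the SOX10 libraries and 133-fold above it in the controls. EGR3 stood at 7.25 against 8.66 CPM per kilobase and EGR4 at 0.82 against 1.63. Log2 fold changes were -0.13 (SE 0.15) for EGR1 and -0.22 (SE 0.21) for EGR3, neither called by edgeR. S100B was one of several abundant S100 genes. S100A11 had the highest level of the family at 3716 against 3971 CPM per kilobase, S100A1 stood at 427 against 414, S100A6 at 272 against 286 and S100A10 at 191 against 195. Their log2 fold changes were -0.098 (SE 0.10), 0.039 (SE 0.11), -0.080 (SE 0.14) and -0.035 (SE 0.14), with edgeR adjusted p-values from 0.932 to 0.987. S100A1 shares 19.64% of its exonic bases with genes on the opposite strand, S100A13 among them, so its level is uncertain.

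The relatives of L1CAM were the family in which single genes lay farthest from 0. NRCAM, which anchors nodes of Ranvier, had 152, 104 and 163 reads against 28, 15 and 47, or 40.7, 41.5 and 39.5 CPM in the SOX10 libraries against 31.0, 17.3 and 22.9 CPM in the controls. CHL1, the close homolog of L1, had 8, 6 and 4 reads against 8, 5 and 9, or 2.14, 2.39 and 0.97 CPM against 8.85, 5.77 and 4.39 CPM. In NRCAM all SOX10 libraries lay above all controls, as in 5.72% of tested genes, and in CHL1 below them, as in 6.03%. The log2 fold change was 0.78 (SE 0.22) for NRCAM and -1.73 (SE 0.57) for CHL1, with edgeR adjusted p-values of 0.302 and 0.483, so neither passed. NFASC, a further nodal protein, stood at 106 ± 12.5 against 107 ± 22.5 CPM with -0.056 (SE 0.15). L1CAM itself was 18.3-fold above NRCAM per length in the SOX10 libraries and 33.9-fold above it in the controls.

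**Figure D3:**
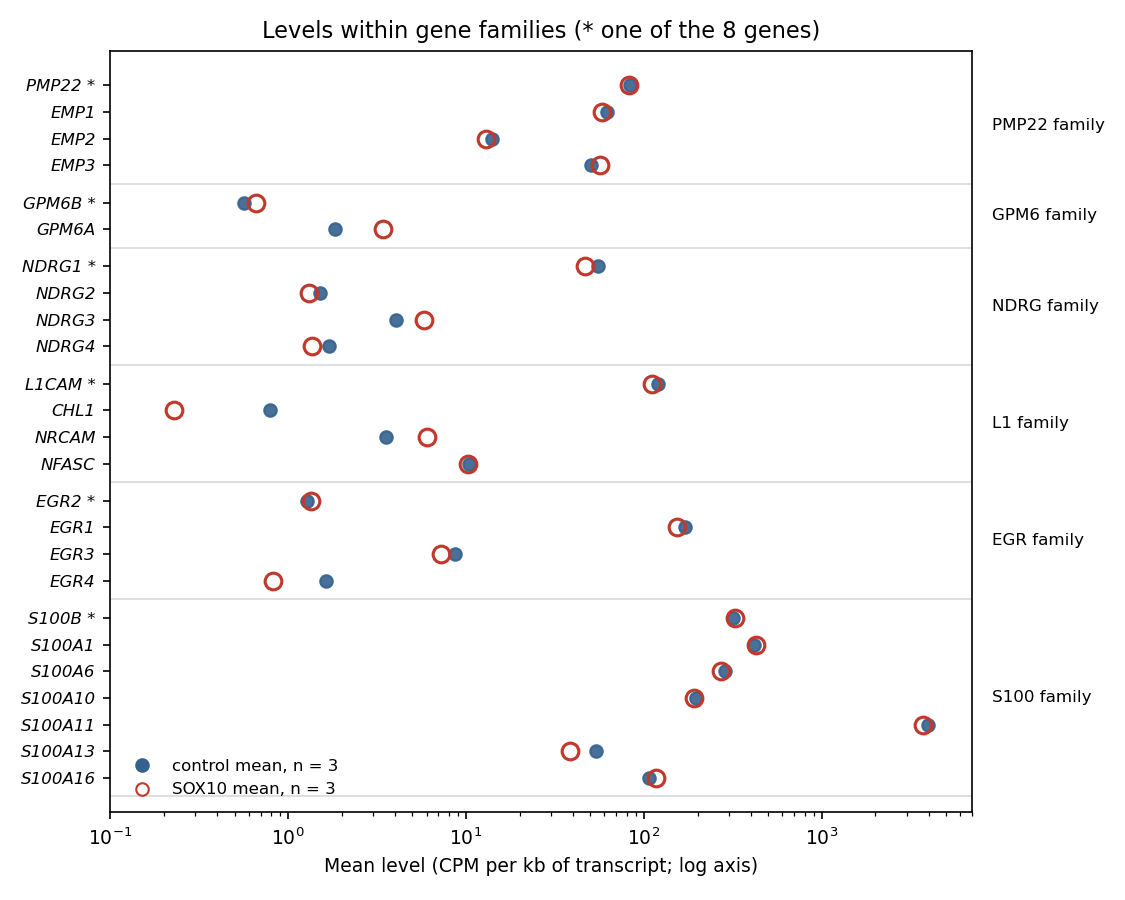
Mean level in CPM per kilobase of transcript (log axis) of the genes in 6 families, with filled points for the control mean and open circles for the SOX10 mean (n = 3 each) and an asterisk at the genes examined here; S100 genes with fewer than 100 reads are not drawn. For most genes the circle covers the point, while genes of a family can lie far apart. EGR1 and EGR2 lie 115-fold apart in the SOX10 libraries, and L1CAM and CHL1 lie farther apart still.

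The other genes of myelin and of Schwann cells gave the same count as the 8. Of 116 further genes in the lists, 113 had reads, 79 were tested and 0 were called higher or lower by edgeR; DESeq2 and limma-voom called 0 as well. Their median log2 fold change was -0.029, beside 0.0076 over all tested genes. At an unadjusted p under 0.05 there were 1 higher and 5 lower, or 6 of 79 beside 6.23% of all tested genes. These are NRCAM, CHL1, NGFR, JUN, ERBB2IP and S100A13, the last named after its values were seen.

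Of 20 further myelin proteins 7 were tested, with a median of -0.013, and 0 passed or had an unadjusted p under 0.05. SH3TC2, an endosomal protein of Schwann cells, differed by 0.29 on the log2 scale (SE 0.23), and the abundant CD9 and LITAF had -0.029 (SE 0.19) and -0.047 (SE 0.16). Of 14 genes for myelin lipids 11 were tested, with a median of 0.048. The sterol regulator SREBF2 had -0.24 (SE 0.15), the sterol enzyme DHCR7 0.056 (SE 0.12), and DEGS1, which makes ceramide, 0.072 (SE 0.10).

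Of 19 genes for adhesion between axon and glia, NRCAM and CHL1 included, 14 were tested, with a median of 0.056. The laminin chains LAMC1 and LAMA4, parts of the Schwann cell basal lamina, had 0.078 (SE 0.098) and 0.065 (SE 0.087), and the laminin receptor chain ITGA6 0.16 (SE 0.11). Of 18 regulators of Schwann cells 16 were tested, 4 with a positive and 12 with a negative log2 fold change, and a median of -0.081. The same split was 3 and 4 for the myelin proteins, 6 and 5 for the lipid genes, 8 and 6 for the adhesion genes, 8 and 9 for the receptors and signalling genes, and 5481 and 5197 over all tested genes. JUN, which holds Schwann cells in the repair state, stood at 58.4, 49.1 and 40.0 CPM in the SOX10 libraries and 67.4, 78.4 and 76.1 CPM in the controls. All its SOX10 libraries lay below all controls, at -0.60 (SE 0.17) on the log2 scale, but the edgeR adjusted p was 0.305. NOTCH1 had -0.33 (SE 0.18), the chromatin remodeller CHD4 -0.14 (SE 0.11) and TEAD1 -0.053 (SE 0.13).

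Of 21 receptors and signalling genes 17 were tested, with a median of -0.021. NGFR, a neurotrophin receptor of immature Schwann cells, had 8, 3 and 9 reads with the SOX10 plasmid and 7, 10 and 10 with the empty one, or 2.14, 1.20 and 2.18 CPM against 7.74, 11.5 and 4.88 CPM. The groups did not overlap, the estimate on the log2 scale was -1.94 (SE 0.54), and the test gave an edgeR adjusted p of 0.292. NGFR shares 17.74% of its exonic bases with loci on the opposite strand. ERBB3, the Schwann cell receptor for neuregulin, stood level at 439 ± 87.2 and 444 ± 36.6 CPM (SD over 3 libraries each), at -0.021 (SE 0.12) on the log2 scale. ERBB2IP, which binds its partner ERBB2, had -0.24 (SE 0.10) with an edgeR adjusted p of 0.750, and the kinase subunit PRKAR1A 0.22 (SE 0.13).

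**Figure D4:**
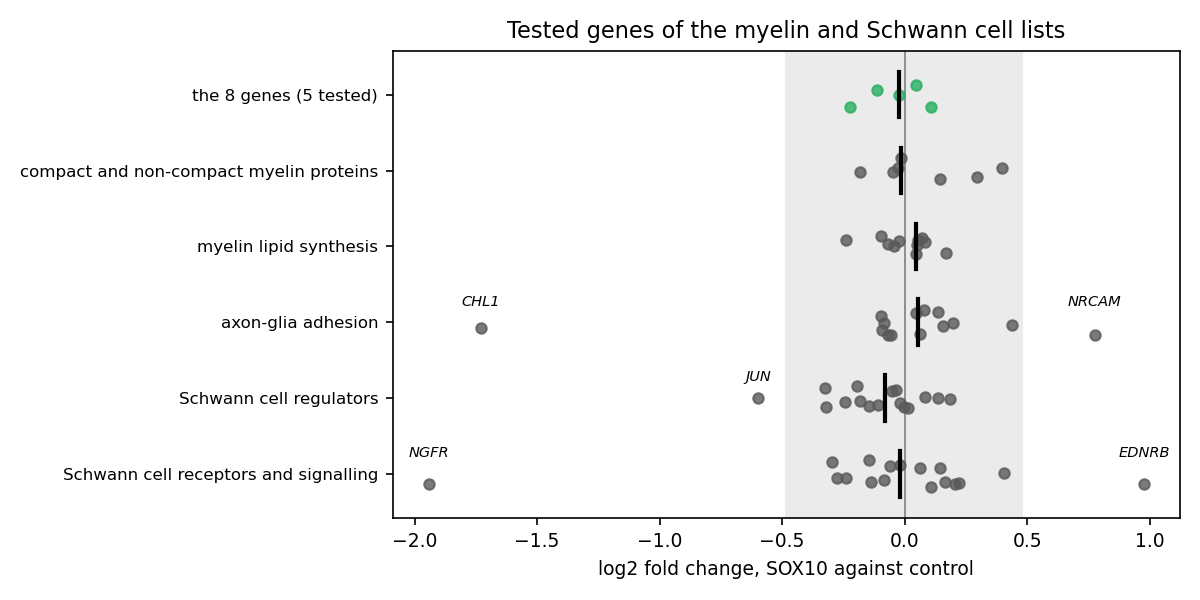
Log2 fold change, SOX10 against control, of every tested gene in the 8 genes (green) and in 5 lists of myelin and Schwann cell genes (grey), with a black bar at each median; the shaded band spans the 5th to 95th percentile of all tested genes, from -0.48 to 0.48. The 5 tested genes lie within the band, and the named genes CHL1, NRCAM, JUN, NGFR and EDNRB lie outside it without passing the test.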

How the data were processed

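RNA from 6 libraries of 1205Lu cells was measured, 3 per group. The authors deposited raw read counts for each gene symbol. Per the submitters' processing notes, TopHat 1.4.0, HTSeq and DESeq were used with build hg19; no source used here gives the annotation, strand setting or overlap mode. The table's 5 class rows, which name no gene, entered neither library sizes nor tests (reads outside genes: 93.5 to 135 per 100 assigned reads).

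Columns were matched to samples by title. Counts of 10678 genes that passed filterByExpr (minimum count 10, total 15) were fitted in edgeR 4.0.16 (R 4.3.3) by quasi-likelihood, with TMM scaling and no covariate, with Benjamini-Hochberg adjustment over all of them. Fold changes use a prior count of 0.125, and standard errors come from the F statistic. The fit was tested on simulated data. CPM of untested genes use the same scaled totals, and 1 read was worth 0.24 to 1.15 CPM. Ratios of summed reads have exact binomial intervals. GENCODE release 29 (GRCh38) gave lengths for 91.4% of tested genes and overlaps; hg19 coordinates are not used here.

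The members, the gene lists and the named-gene rule were chosen with earlier results of these data known. The rule names the 8 genes, SOX10, PMP2, detected relatives in 5 families, the 4 most abundant S100 genes, and in 5 lists the 3 tested genes with the smallest p and the 2 with the highest mean. Of the genes it names, 3 are not reported here. For likeness it takes the gene with the highest Pearson r to each tested member. Alternatives were other scalings, filters, DESeq2 1.42.0, limma-voom (limma 3.58.1), the replicate number as a block, and left-out libraries.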

Additional observations from a re-analysis of the deposited data

How the results depend on the processing

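Of the 8 genes, 0 were called higher and 0 lower in each of 15 alternatives, in which 5 to 8 of them could be fitted, and the lowest adjusted p of a tested gene among them was 0.789. The further myelin and Schwann cell genes also gave 0 and 0 in each. Over all genes, 1 was called higher and 11 lower. These counts were 2 higher with library totals, 13 and 35 with no low-count filter, and 3 higher with the CPM filter. Lower calls numbered 7 with upper-quartile scaling, 7 with limma-voom, 6 with the replicate block, and 6 when SOX10 replicate 1 and control replicate 3 were both left out. Without single libraries the counts ran from 1 to 4 higher and from 5 to 16 lower. The cause was not tested. Same-numbered libraries showed no sign of pairing, since their deviations had r from -0.13 to -0.027. Deviations of 3 libraries from their group mean sum to 0, so such r values cannot decide whether the numbers pair the samples. No sample matched its own number best. The highest r, 0.14, joined SOX10 replicate 1 and control replicate 3, the libraries described above as standing apart. Whether they share a batch was not tested.

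CNP, NDRG1 and L1CAM kept their sign in every alternative, none of them past the threshold. PMP22 turned to 0.0030 with upper-quartile scaling, 0.0073 with no filter, 0.085 without SOX10 replicate 3 and 0.015 without control replicate 1. S100B turned to -0.0066 without both libraries named above. Other uncalled values also turned sign. Without both libraries, NDRG4 turned from -0.37 to 0.063, while NFASC was at 0.077 and CD9 at 0.076. CD9 was at 0.0016 and ERBB3 at 0.012 with no filter, and ERBB3 at 0.0075 with upper-quartile scaling. Ranges without single libraries were -0.25 to 0.0088 for EMP2, -0.70 to -0.12 for NDRG4 without a change of sign, -0.13 to 0.44 for EMP3, -0.15 to 0.17 for NFASC, -0.27 to 0.18 for EGR1, -0.20 to 0.010 for S100A11, -0.053 to 0.097 for S100A1, -0.19 to 0.13 for S100A10, -0.27 to 0.036 for S100A6, -0.26 to 0.31 for CD9, -0.16 to 0.015 for LITAF, -0.013 to 0.19 for DEGS1, -0.059 to 0.16 for DHCR7, -0.0016 to 0.16 for LAMC1, -0.21 to 0.065 for TEAD1, -0.20 to 0.079 for ERBB3, -0.092 to 0.085 for PMP22 and -0.057 to 0.16 for S100B. Depth limits MBP, GPM6B and EGR2 most, with 18, 35 and 61 reads over all libraries.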

Other observations

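The 5 tested genes did not share one profile over the 6 libraries. PMP22 and L1CAM moved most alike, with a Pearson r of 0.80 between their log2 CPM, and both were lowest in SOX10 replicate 3. CNP and NDRG1 moved most oppositely, with -0.87. These values describe 6 libraries whose depths differ between the groups, and they carry no test. The gene whose profile was nearest to each was MYO9B for PMP22 (r = 0.98), CACNA1D for CNP (0.99), SERPINE2 for S100B (0.99), TP53RK for NDRG1 (0.99) and LOC100130776 for L1CAM (0.996). An r above 0.95 was reached by 15 to 46 of the other tested genes, so the nearest gene is 1 of many.

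Markers of other lineages were mostly rare. Summed over 7 genes, oligodendrocyte markers reached 5.36 to 10.4 CPM in the SOX10 libraries and 6.34 to 13.8 CPM in the controls, and keratinocyte markers 6.16 to 17.4 against 9.95 to 18.5 CPM. Leukocyte markers reached 5.09 to 7.18 against 1.95 to 4.42 CPM, with CD3E at 0, and endothelial markers 8.96 to 23.1 against 8.84 to 16.6 CPM. The leukocyte sums rest on few reads, with PTPRC at 28, ITGAM at 20 and the others at 0 to 9 over all libraries. Of these leukocyte genes 0 had enough reads for the test, so the gap between the groups was not tested. Fibroblast markers reached 105 to 176 against 118 to 159 CPM. Most of these fibroblast-list reads were PDGFRA, with 1817 reads over all libraries, while LUM had 0 and DCN 11. The part of these markers in the values of the 8 genes was not tested.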
